A study of Rattus norvegicus with 4 samples.

Results

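The Cyp2c genes are the cytochrome P450 subfamily that supplies a large part of the drug and steroid oxidation in rat liver. Members were taken by name, as every gene symbol that starts with Cyp2c. This name rule uses no measured value, but the family was chosen with earlier results of these data known. Of the 16992 genes measured, 8 belong to it, namely Cyp2c6v1, Cyp2c7, Cyp2c11, Cyp2c12, Cyp2c13, Cyp2c22, Cyp2c23 and Cyp2c24. Each of the 8 has a single annotated row in the table of every library. RefSeq lists 11 protein-coding Cyp2c genes in its GRCr8 annotation, and the other 3 (Cyp2c55, Cyp2c66 and Cyp2c7l1) were not analysed here.

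RNA sequencing was used to compare 2 inhalational anesthetic agents, sevoflurane and desflurane, in the livers of wild-type male Wistar rats, purchased at 6 weeks of age and kept for at least 1 week. A rat of the 6 h groups breathed sevoflurane at 4.5% or desflurane at 6% for 6 hours, and a control rat breathed the same agent for less than 1 minute, until it lost consciousness, before decapitation. All rats, the controls included, had been without food and water for 2 hours, and the gas was given through nose cones with 50% oxygen at 3 L/min. There was 1 library per condition, and each library came from 1 rat, so that no replicate error, standard deviation or p-value can be given for any value, and differences between conditions cannot be told apart from differences between individual rats. Both controls therefore carry a short exposure to an agent, and no rat without anesthesia was measured. A control and the 6 h rat of an agent also differ in the hours spent without food. All 4 rats were killed at about 3 PM.

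Cytochrome P450 enzymes of the Cyp2c subfamily sit in the endoplasmic reticulum and insert an oxygen atom into steroids, retinoids, fatty acids and drugs, with electrons supplied by P450 oxidoreductase (Por). Rat liver is known for the sex difference of this subfamily: male rats release growth hormone in pulses and female rats more continuously, and the signal passes through the growth hormone receptor, Jak2 and Stat5b to the liver genes. Cyp2c11 and Cyp2c13 are the classic male-specific members, whereas Cyp2c12 is the classic female-specific one and Cyp2c7 is more abundant in females. Cyp2c6v1 is expressed in both sexes and responds to phenobarbital through the nuclear receptor CAR (Nr1i3). Cyp2c23 is an arachidonic acid epoxygenase.

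All 8 genes lie on rat chromosome 1, and in the build used for the files (rn6) the annotated rows fall into separate blocks. The row of Cyp2c7 covers chr1:147422999-148119857 on the minus strand, and that of Cyp2c6v1 covers chr1:147713901-147814394 on the plus strand, inside the span of Cyp2c7. Cyp2c11 (chr1:257676172-258004425) and Cyp2c24 (chr1:258074860-258139176) follow each other on the plus strand. Cyp2c12 (chr1:258709726-258766873), Cyp2c13 (chr1:258796624-258877023), Cyp2c22 (chr1:259257658-259287666) and Cyp2c23 (chr1:263778510-263803150) lie beyond them on the minus strand. These genes are paralogs with similar sequences, and how the counting divided reads between them is not given in the sources used here, so that the level of any single member is less certain than the sum of the family.

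RefSeq (GRCr8) gives a promoter window for 7 of the 8 members, and the 250 bases before each start were searched on both strands for 5 motifs. The letters of the TATA box, TATAAA, were found anywhere in 6 of the 7 windows and in 12.9% of all 33469 rat windows of that length. In Cyp2c22 they lay 197 bases before the start and not nearer. The nearest match in the other windows that hold them lay 29 to 52 bases before the start. The core recognised by HNF6 (Onecut1), ATTGAT, was found in 3 of the 7, those of Cyp2c7, Cyp2c12 and Cyp2c13, and in 7.1% of all windows. The windows of Cyp2c12 and Cyp2c13 hold this core on the same strand, 71 and 60 bases before the start, and the window of Cyp2c7 holds it on the opposite strand, 71 bases before the start. The window of Cyp2c12 holds it a second time, on the opposite strand, 243 bases before the start. The letters TTCNNNGAA (Stat5), CAAAGTCC (Hnf4a) and AGTTCA repeated after 4 bases (DR4, a direct repeat bound by CAR and PXR) were in none of the 7 windows, and in 7.67%, 1.14% and 0.012% of all windows. The windows of Cyp2c11 and Cyp2c22, both counted as male-biased below, do not hold the HNF6 core. The 3 windows that hold it are shown because they belong to other sex-biased members described below. Capitals mark TATAAA and ATTGAT or their reverse complements. The 3 windows lie at chr1:248677035-248677284 (minus strand), chr1:248787189-248787438 (minus strand) and chr1:247966144-247966393 (plus strand).
Cyp2c12: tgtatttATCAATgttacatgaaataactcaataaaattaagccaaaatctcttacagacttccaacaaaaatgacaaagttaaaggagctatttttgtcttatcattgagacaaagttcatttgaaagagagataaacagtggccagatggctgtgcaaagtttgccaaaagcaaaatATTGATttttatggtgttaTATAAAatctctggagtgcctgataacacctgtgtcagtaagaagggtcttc
Cyp2c13: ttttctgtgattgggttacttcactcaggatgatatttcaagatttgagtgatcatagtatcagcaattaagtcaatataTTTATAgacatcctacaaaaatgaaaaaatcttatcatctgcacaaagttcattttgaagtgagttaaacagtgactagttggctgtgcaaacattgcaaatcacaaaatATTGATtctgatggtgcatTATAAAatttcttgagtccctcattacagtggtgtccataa
Cyp2c7: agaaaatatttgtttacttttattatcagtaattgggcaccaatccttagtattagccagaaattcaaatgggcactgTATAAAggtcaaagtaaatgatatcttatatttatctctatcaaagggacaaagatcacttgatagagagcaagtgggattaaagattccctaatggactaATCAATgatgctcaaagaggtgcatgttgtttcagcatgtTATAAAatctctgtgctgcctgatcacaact

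The windows of Cyp2c11 (chr1:246174966-246175215, plus strand) and Cyp2c24 (chr1:246286091-246286340, plus strand) are shown because they were the most alike of the 21 pairs of windows, with 62.7% identical columns in a global alignment and an unbroken shared run of 45 bases that starts 63 and 61 bases before the start. Capitals mark the TATA box, which lies inside this run, 31 and 29 bases before the start. Cyp2c12 and Cyp2c13 shared 60.7% of columns and Cyp2c12 and Cyp2c7 shared 54.5%, against 41.5% to 52.0% for the remaining pairs. Likeness of these windows is a description of sequence, and the levels of Cyp2c11 and Cyp2c24 in liver were far apart.
Cyp2c11: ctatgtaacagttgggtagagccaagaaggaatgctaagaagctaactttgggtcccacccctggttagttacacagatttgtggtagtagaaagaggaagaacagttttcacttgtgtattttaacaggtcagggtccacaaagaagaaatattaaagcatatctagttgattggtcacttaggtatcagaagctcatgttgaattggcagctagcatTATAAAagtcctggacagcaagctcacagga
Cyp2c24: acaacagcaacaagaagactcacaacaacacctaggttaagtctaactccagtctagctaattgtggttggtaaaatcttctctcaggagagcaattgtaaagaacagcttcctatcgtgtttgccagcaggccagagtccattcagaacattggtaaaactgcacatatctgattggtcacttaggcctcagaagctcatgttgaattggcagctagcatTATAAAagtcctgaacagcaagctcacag

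Levels are given as TPM, a measure corrected for transcript length and library size, which can be compared between genes. In these data the assembled rows alone sum to 1000000 and the annotated rows come on top. The values are therefore not shares of all transcripts. Whole-tissue RNA was sequenced, and fewer cells of a type and less RNA per cell cannot be told apart. Most Cyp2c genes were among the most abundant messages of these livers, and 6 of the 8 had TPM values between 544 and 4024 in every library. Cyp2c7, with 1978, 1999, 4024 and 2382 TPM in the sevoflurane control, sevoflurane 6 h, desflurane control and desflurane 6 h libraries, had the highest mean of the family and stood between place 27 and place 55 among the 16992 genes. Cyp2c13 had 2601, 2048, 2078 and 1813 TPM in the same order of libraries. Cyp2c6v1 had 1609, 2214, 1623 and 2253 TPM. These 3 genes took the top 3 places of the family in all 4 libraries, although their order among themselves differed.

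**Figure D1:**
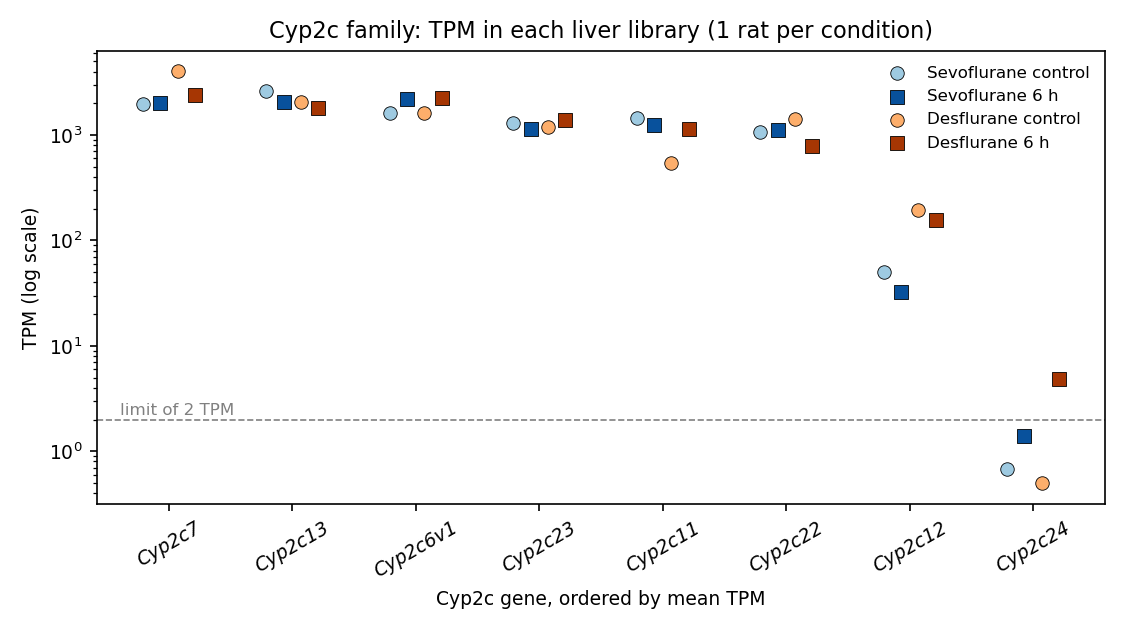
TPM of each Cyp2c gene (x axis, by mean TPM) in the 4 liver libraries on a log scale (y axis); circles are controls, squares are 6 h libraries, and the dashed line is the limit of 2 TPM. The 6 abundant genes lie between 544 and 4024 TPM, Cyp2c12 lies between 32.6 and 193 TPM, and Cyp2c24 is above the limit in the desflurane 6 h library alone, at 4.82 TPM.

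Cyp2c23 had 1306, 1136, 1203 and 1387 TPM in the same order, the narrowest spread of the family. Cyp2c11 had 1457, 1245, 544 and 1146 TPM, and the desflurane control was the low library. Cyp2c22, an enzyme that hydroxylates retinoic acid and that RefSeq also lists as Cyp2c70, had 1072, 1123, 1408 and 787 TPM, with the desflurane 6 h library lowest. Below these genes there was a wide gap to the remaining pair. The female-specific Cyp2c12 had 49.996, 32.6, 193 and 156 TPM, so that both desflurane libraries were above both sevoflurane libraries. Cyp2c24 was close to absent, with 0.676, 1.39, 0.498 and 4.82 TPM. The average coverage per base behind these values was 0.932 to 8.11 for Cyp2c24, 55.2 to 361 for Cyp2c12 and 1018 to 7534 for the others, so the ratios of Cyp2c24 rest on few reads.

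The summed level of the family differed little between the 4 rats. It was 10072 TPM in the sevoflurane control, 9798 TPM after 6 hours of sevoflurane, 11072 TPM in the desflurane control and 9928 TPM after 6 hours of desflurane, and the highest library was 1.13-fold above the lowest. The ratio of the sum over the own control was 0.973 with sevoflurane and 0.897 with desflurane. Taken against the control of the other agent, the ratio was 0.885 for sevoflurane and 0.986 for desflurane. These 8 genes made up 1.22% to 1.42% of the TPM of all annotated genes kept. The near-constant sum covered an unequal mixture, because Cyp2c7 alone gave 36.3% of the sum in the desflurane control and 19.6%, 20.4% and 24.0% in the sevoflurane control, sevoflurane 6 h and desflurane 6 h libraries. Without Cyp2c7, the sum of the other 7 members had a ratio of 1.07 for desflurane over its own control and 0.871 for the desflurane control over the sevoflurane control.

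**Figure D2:**
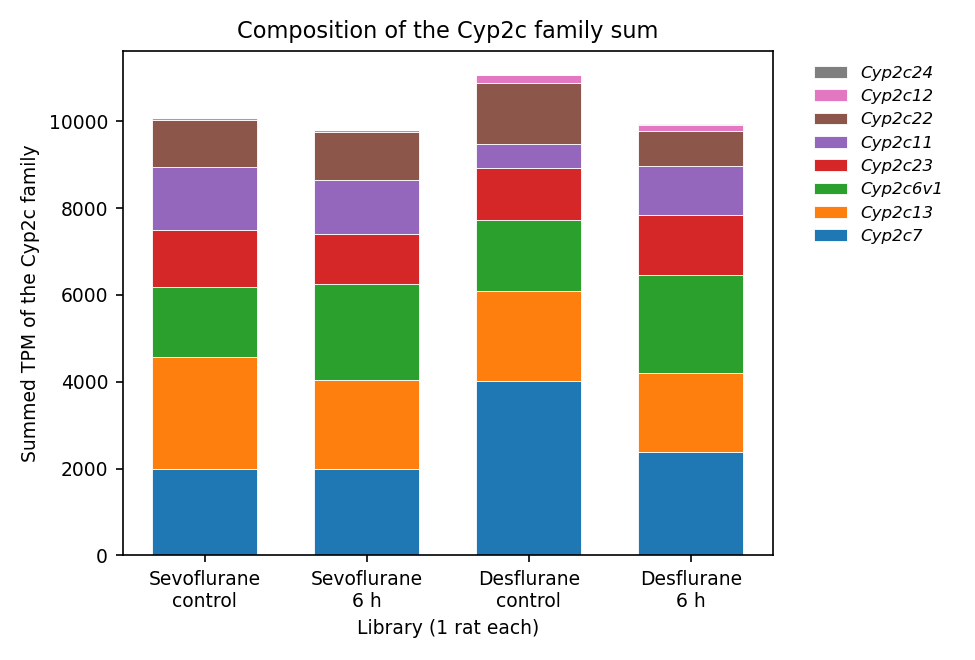
Stacked bars of summed TPM (y axis, from 0) of the Cyp2c genes in each library (x axis, 1 rat each), with a colour per gene. The bars reach 10072, 9798, 11072 and 9928 TPM from left to right, with the tallest share of Cyp2c7 (36.3%) and the smallest of Cyp2c11 (4.91%) in the desflurane control.

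The share of Cyp2c11 in the sum was 14.5%, 12.7%, 4.91% and 11.5% in the same order of libraries. The share of Cyp2c6v1 was 16.0% and 14.7% in the sevoflurane and desflurane controls, and it was 22.6% and 22.7% in the respective 6 h libraries. Cyp2c6v1 was the most abundant member after 6 hours of sevoflurane, where it passed Cyp2c13 and Cyp2c7. In the sevoflurane control the leading member was Cyp2c13, and in both desflurane libraries it was Cyp2c7. No spread within a condition is available for these orders, and neighbours such as Cyp2c13 and Cyp2c7 after 6 hours of sevoflurane (2048 and 1999 TPM) were nearly level.

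To ask what each agent did to these genes, each 6 h library was set against the control of its own agent, and a gene was called when its TPM was above 2 in the higher library and differed by more than 2-fold. With sevoflurane, 0 of the 8 members were called, where, of the 9754 genes above 2 TPM in at least 1 of both libraries, 2.23% were called higher and 3.3% lower. The ratios of 7 members lay between 0.653 and 1.38, and the ratio of the remaining gene, Cyp2c24, was 2.06 at levels below the TPM limit. The largest difference among the expressed members was that of Cyp2c12, which was 1.53-fold lower. It was the sole member past a 1.5-fold limit, which 16.1% of genes passed in either direction. The median log2 ratio of the members was -0.09, beside 0.05 for all genes.

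With desflurane, 2 of the 8 members were upregulated more than 2-fold over the own control, Cyp2c11 and Cyp2c24, and 0 were downregulated, where 2.79% of 9855 genes were called higher and 1.48% lower. Cyp2c11 was 2.11-fold higher (544 against 1146 TPM), and Cyp2c24 was 9.67-fold higher (0.498 against 4.82 TPM). Past the lower limit of 1.5-fold there were also Cyp2c22, 1.79-fold lower, and Cyp2c7, 1.69-fold lower, so that 4 of 8 members passed it, beside 14.6% of all genes. The median log2 ratio of the members was 0.00, beside 0.12 for all genes, and the median size of the ratio without its sign was 0.61, beside 0.23. Of the 2 calls, that of Cyp2c11 is at the limit: its ratio was 1.93 with median-of-ratios scaling and 1.998 with FPKM in place of TPM.

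**Figure D3:**
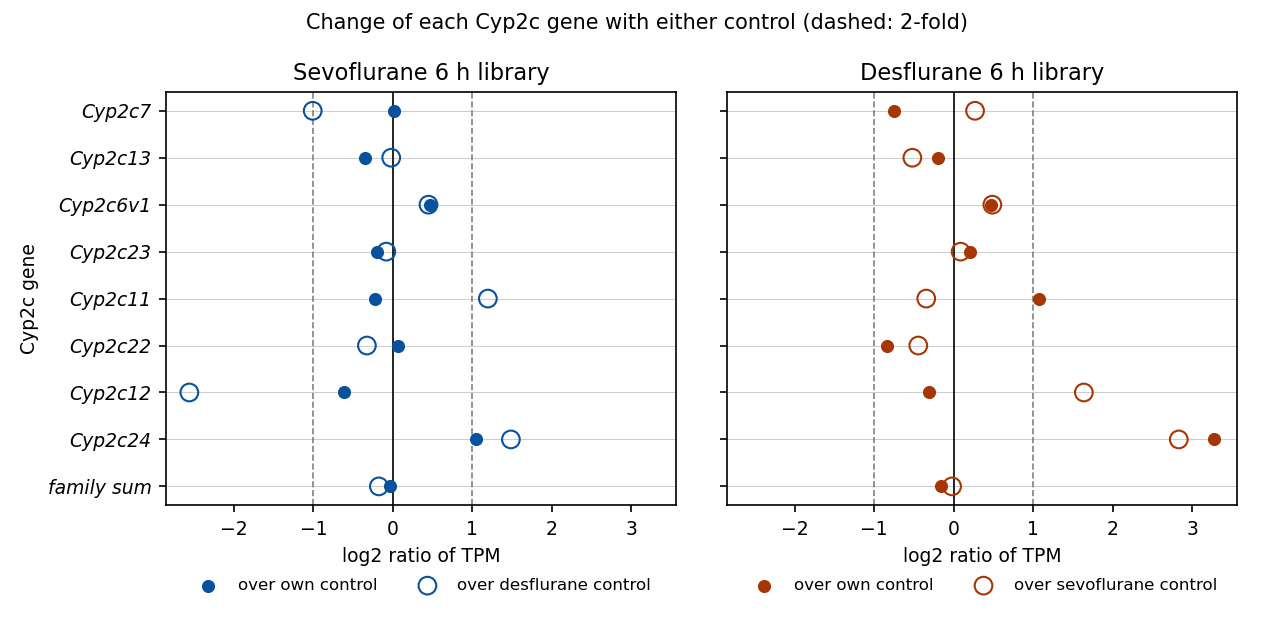
The log2 ratio of TPM (x axis) of each Cyp2c gene and of the family sum (y axis) in the sevoflurane 6 h library (left) and the desflurane 6 h library (right), over the control of its own agent (filled) and of the other agent (open); dashed lines mark 2-fold. The 2 circles of Cyp2c6v1 nearly coincide in both panels, whereas those of Cyp2c11, Cyp2c12 and Cyp2c7 lie on opposite sides of 0 in the desflurane panel.

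Because both controls had less than 1 minute of anesthesia, each 6 h library was also set against the control of the other agent. The comparisons share their libraries and are not independent. In the sevoflurane 6 h library over the desflurane control, 1 member was called higher (Cyp2c11, 2.29-fold) and 2 lower (Cyp2c12, 5.90-fold, and Cyp2c7, 2.01-fold), where 2.52% and 2.59% of genes were called. The call of Cyp2c7 is at the limit and was lost with FPKM, where its ratio was 0.542. In the desflurane 6 h library over the sevoflurane control, Cyp2c12 (3.11-fold) and Cyp2c24 (7.12-fold) were called higher and 0 members lower, where 2.84% and 1.58% of genes were called. Apart from Cyp2c24, none of the 7 other members was called with both controls of the same agent.

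The controls themselves differed in 3 of the 8 members, 2 called higher and 1 lower in the desflurane control, where 1.17% of 9756 genes were called in each direction. Cyp2c12 was 3.85-fold and Cyp2c7 was 2.03-fold higher in the desflurane control than in the sevoflurane control, and Cyp2c11 was 2.68-fold lower. With FPKM the ratio of Cyp2c7 was 1.800, under the limit, which left 2 members called. Members of the family are abundant, and of the genes above 50 TPM in at least 1 of the controls 2.66% were called. The 3 members are the female-specific gene, the female-predominant gene and a male-specific gene, while the male-biased Cyp2c13 and Cyp2c22 had ratios of 0.799 and 1.31, on opposite sides of 1. In the desflurane control the ratio of Cyp2c11 to Cyp2c12 was 2.82, beside 29.1 in the sevoflurane control, 38.1 after sevoflurane and 7.37 after desflurane. Both livers labelled desflurane thus had the lower ratios. The 2 control rats are both described as male, and whether the difference comes from the animals, the agent or the library cannot be told apart.

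Each role within the family gave its own picture across the 4 rats. Among the male-biased members, Cyp2c11 was at its lowest in the desflurane control and had the ratios 0.855 and 2.11 over the own controls with sevoflurane and desflurane. Cyp2c13 had the ratios 0.787 and 0.873, and was highest in the sevoflurane control. Its position therefore did not follow that of Cyp2c11, which in the desflurane control was far below the other 3 libraries. Cyp2c22 had 1.05 and 0.559. Added together, Cyp2c11, Cyp2c13 and Cyp2c22 gave 5129, 4415, 4030 and 3746 TPM in the sevoflurane control, sevoflurane 6 h, desflurane control and desflurane 6 h libraries.

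The female-biased members were both highest in the desflurane control. Cyp2c7, which hydroxylates retinoic acid, had nearly the same level in both sevoflurane libraries (1978 and 1999 TPM), and after 6 hours of desflurane its 2382 TPM was 1.20-fold above the sevoflurane control. Its difference from the desflurane control thus rests on the high value of that control. Cyp2c12, which hydroxylates steroid sulfates, had a ratio below 1 over the own control with each agent, 0.653 and 0.807. The gap between the desflurane and sevoflurane rats was larger than either, but it was already present in the controls. There the desflurane control was 3.85-fold above the sevoflurane control. Between the 6 h libraries, that of desflurane was 4.76-fold above that of sevoflurane. In that comparison 2 of the 8 members were called, both higher (Cyp2c12 and Cyp2c24 at 3.46-fold), where 2.76% of 9829 genes were called higher and 1.17% lower. The sum of Cyp2c7 and Cyp2c12 was 2028, 2032, 4216 and 2537 TPM in the same order of libraries.

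Cyp2c6v1, the phenobarbital-responsive member, had 6 h libraries (2214 and 2253 TPM) above both controls (1609 and 1623 TPM), without overlap. Control and 6 h libraries did not overlap in Cyp2c13 and Cyp2c24 either, with both 6 h libraries below both controls for Cyp2c13 and above them for Cyp2c24. For Cyp2c13 the gap was narrow, 2048 TPM after sevoflurane against 2078 TPM in the desflurane control. With FPKM these 2 libraries had 775 and 720, so that the groups overlapped. How many of all genes lack overlap was not counted, so no weight can be given to these cases. The ratio of Cyp2c6v1 was 1.38 with sevoflurane and 1.39 with desflurane over the own control, and 1.36 and 1.40 over the other control, all below the 1.5-fold limit. The 2 controls differed in it by a ratio of 1.01 and the 6 h libraries by 1.02. Over the settings tried, the ratio ranged from 1.33 to 1.38 with sevoflurane and from 1.21 to 1.39 with desflurane. The value of 1.21 came from assembled rows of unlike span, described below.

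Cyp2c23, which converts arachidonic acid to epoxides, had ratios of 0.870 and 1.15 over the own controls, and its 4 values overlapped between control and 6 h libraries. Cyp2c24 was above the TPM limit in 1 library, that of desflurane 6 h. Its 2 controls (0.676 and 0.498 TPM) were below both 6 h libraries (1.39 and 4.82 TPM), to which, as said above, no weight can be given. At an average coverage of 0.932 to 8.11 per base, its ratios are imprecise, and with a pseudocount of 1 TPM the 9.67-fold difference became 3.88-fold.

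**Figure D4:**
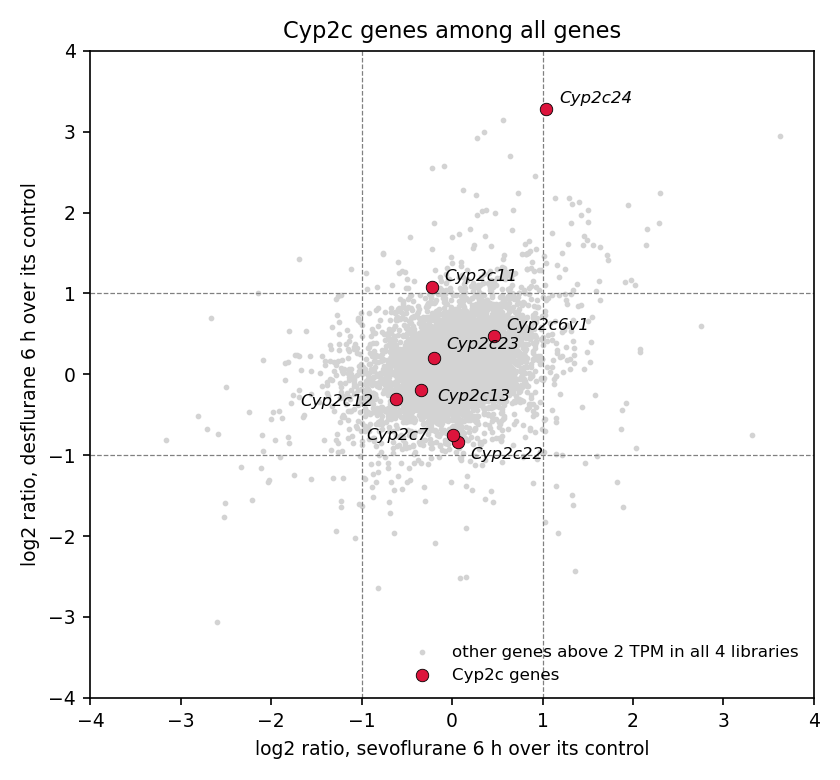
Log2 ratio of TPM over the own control with sevoflurane (x axis) and with desflurane (y axis) for the 8 Cyp2c genes (red) and 9129 other genes above 2 TPM in all 4 libraries (grey; 7 lie outside the axes), with dashed lines at 2-fold. Cyp2c6v1 lies near the diagonal at 0.46 and 0.47, Cyp2c11 lies at -0.23 and 1.08, and Cyp2c7 (0.016 and -0.76) and Cyp2c22 (0.067 and -0.84) lie close together.

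The genes of growth hormone signalling to the liver differed between the libraries alongside the sex-biased members. Of 18 such genes, 5 were higher and 1 lower past 2-fold in the desflurane control over the sevoflurane control, where 1.17% of genes were called in each direction. The median log2 difference of the list, with 1 TPM added, was 0.12, beside -0.03 for all genes. Cish, a feedback inhibitor that growth hormone induces through Stat5, had 21.9, 3.63, 70.0 and 8.40 TPM in the order sevoflurane control, sevoflurane 6 h, desflurane control and desflurane 6 h. Socs2, another such inhibitor, had 38.8, 20.3, 96.4 and 61.2 TPM. Both were highest in the desflurane control, as were Cyp2c12 and Cyp2c7. Onecut1, which encodes HNF6, had 15.2, 33.9, 61.2 and 41.9 TPM, and was lowest in the sevoflurane control.

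Bcl6, a male-biased repressor that competes with Stat5, had 50.7, 16.6, 5.87 and 8.49 TPM and was highest in the sevoflurane control. Cux2, a female-biased repressor of male-biased genes, had 0.837, 9.59, 9.23 and 15.9 TPM. Its level in the sevoflurane control was therefore below the other 3 libraries. The prolactin receptor Prlr had 1.5, 1.88, 4.61 and 2.76 TPM. The signalling core was more even: Ghr, the growth hormone receptor, had 279, 219, 289 and 258 TPM, and Stat5b had 34.2, 28.6, 36.9 and 34.0 TPM. Igf1, the main growth hormone target of liver, had 932, 774, 1191 and 1010 TPM.

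**Figure D5:**
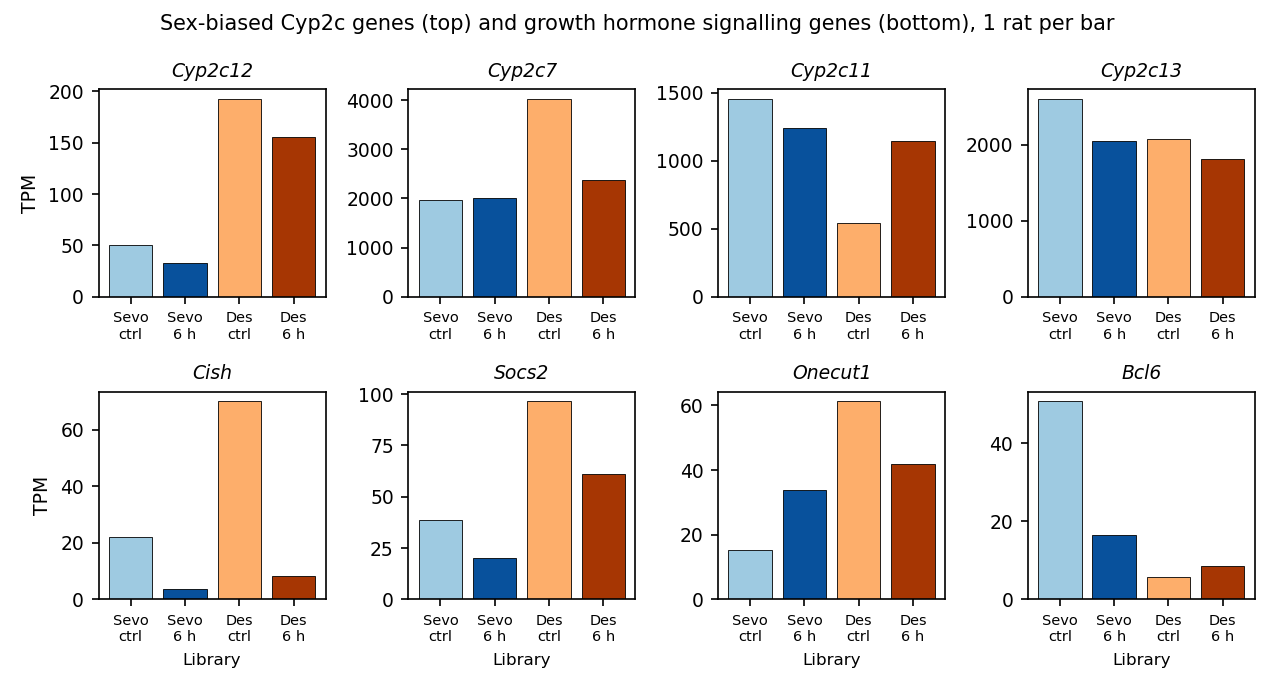
TPM (y axis, from 0, a scale per panel) in each library (x axis, 1 rat per bar) of 4 sex-biased Cyp2c genes (top row) and 4 genes of growth hormone signalling (bottom row). Cyp2c12, Cyp2c7, Cish, Socs2 and Onecut1 are highest in the desflurane control, where Cyp2c11 (544 TPM) and Bcl6 (5.87 TPM) are lowest.

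With each agent, 14 of the 18 growth hormone genes had a lower level after 6 hours than in the own control. The medians were -0.28 for sevoflurane and -0.20 for desflurane, beside 0.05 and 0.11 for all genes. Past 2-fold, 2 were higher (Cux2 and Onecut1) and 3 lower (Socs3, Cish and Bcl6) with sevoflurane, and 0 were higher and 2 lower (Socs3 and Cish) with desflurane. Of all genes, 2.23% were called higher and 3.3% lower with sevoflurane, and 2.79% and 1.48% with desflurane. These shares also stand beside the own-control counts of the lists that follow. Socs3, which also responds to inflammatory cytokines, had 15.2, 3.74, 24.2 and 9.76 TPM. Cyp2c12 and Cyp2c13 also had lower levels than the own control with each agent, although neither was past 2-fold.

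Other genes with a known sex bias in rat liver were counted outside the Cyp2c family. Of 10 female-biased genes, 5 were higher (A1bg, Cux2, Prlr, Akr1b7 and Trim24) and 1 lower (Adh4) past 2-fold in the desflurane control over the sevoflurane control, with a median of 0.84. Of 11 male-biased genes, 1 was higher (Cyp4a2) and 4 were lower (Cyp3a18, Obp3, Bcl6 and Hsd3b5), with a median of -0.65. The median of all genes was -0.03, and 1.17% were called in each direction. Cux2, Prlr and Bcl6 are also in the growth hormone list. Akr1b7 had 6.92, 6.44, 30.1 and 35.1 TPM, with both desflurane libraries above both sevoflurane libraries, as for Cyp2c12. Hsd3b5, a male-biased steroid dehydrogenase, had 150, 68.6, 63.1 and 87.9 TPM, and was highest in the sevoflurane control. Not all genes went this way. Without a fold limit, 7 female-biased genes were higher and 3 lower in the desflurane control, and 3 male-biased genes were higher and 8 lower. Among the more abundant, the male-biased Sult1e1 had a ratio of 1.12 and the female-biased Adh4 one of 0.178.

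The axis of the nuclear receptors CAR and PXR, which responds to phenobarbital and similar inducers, includes receptors that act on Cyp2c6v1. Of its 24 genes, 6 were higher and 2 lower past 2-fold with sevoflurane, and 8 were higher and 1 lower with desflurane, over the own control. Cyp2b1, the classic phenobarbital-inducible P450, had 17.8, 1632, 16.1 and 1090 TPM. Cyp2b2 had 153, 1893, 165 and 1271 TPM. The ratios of Cyp2c6v1, 1.38 and 1.39, were far smaller than those of these 2 genes. The receptors themselves had 52.9, 22.7, 37.3 and 42.1 TPM (Nr1i3) and 67.7, 121, 54.2 and 153 TPM (Nr1i2, which encodes PXR).

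Por, which passes electrons to every Cyp2c enzyme, had 144, 642, 119 and 415 TPM. Alas1, which sets the rate of heme synthesis, had 98.2, 433, 100 and 304 TPM. Of the 14 genes of electron and heme supply these 2 were past 2-fold, both higher, with each agent over either control. Por and Alas1 are also in the CAR and PXR list. Of 32 other P450 genes of families 1 to 3, 3 were higher with sevoflurane and 7 with desflurane, and 0 were lower with either, over the own control. The 3 higher with sevoflurane (Cyp2b1, Cyp2b2 and Cyp3a23/3a1) are in the CAR and PXR list too, so these counts overlap. The medians of these 32 genes were -0.01 and 0.55, beside 0.05 and 0.11 for all genes. The sum of their levels was 11892, 15262, 8136 and 14353 TPM, and the Cyp2c sum was below it in 3 libraries and above it in the desflurane control.

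Among 17 transcription factors that act on Cyp2c genes in liver, Onecut1 was higher and Foxa2 lower past 2-fold with sevoflurane, and 0 were past it with desflurane. Hnf4a, a main activator of hepatic P450 genes, had 246, 226, 199 and 216 TPM. Cebpa had 168, 161, 161 and 182 TPM. Hnf4a and Cebpa were nearly level in the 4 rats, but other factors of the list were not. Foxa2 had 30.5, 12.7, 44.5 and 22.9 TPM, and Onecut1 was 4.02-fold higher in the desflurane control than in the sevoflurane control. Dbp, a clock-controlled activator, had 186, 175, 101 and 164 TPM and was lowest in the desflurane control, as Cyp2c11 was.

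Enzymes that share substrates with the family were counted as well. Of 21 enzymes of arachidonic acid epoxides and hydroxylation, 2 were higher with sevoflurane (Cyp4a2 and Cyp4a3), and with desflurane 2 were higher (Cyp2j4 and Cyp4a1) and 2 lower (Cyp4a2 and Cyp4a3), over the own control. Of 17 retinoid enzymes, 2 were lower with sevoflurane (Adh1 and Adh4) and 1 was higher with desflurane (Rdh16). Cyp2c23, on the epoxide side, and Cyp2c22, on the retinoid side, were called in neither comparison.

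All 8 hepatocyte markers were measured, with sums of 136726 to 153042 TPM, and 0 were past 2-fold in any of the 6 comparisons, so that the tissue carried the label of liver throughout. Cyp2c genes are pericentral in part, and of 15 pericentral genes 13 were lower in the desflurane control than in the sevoflurane control. Their median was -0.27, beside -0.03 for all genes, and 1 was past 2-fold. The sevoflurane control stood apart in 6 pancreatic acinar markers, which summed to 28.9 TPM in it and to 0.2 to 0.7 TPM in the other libraries, where Prss1, Pnlip and Ctrb1 were at 0. Of 10 Kupffer cell markers 10 were lower after sevoflurane than in its control, 4 of them past 2-fold, with sums of 784, 466, 617 and 723 TPM. The part of these cell types in the levels of Cyp2c genes was not tested.

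Genes whose profile over the 4 libraries was most like that of the family were found by the distance between log2 profiles centred on their own means, over 5956 other genes with a mean TPM above 10. For the family sum these were Bmi1 (distance 0.013), B4galt1 (0.023), Ndufv3 (0.027), Ccdc50 (0.033) and Stk38 (0.034). For Cyp2c7, the most abundant member, they were Abcg2 (0.22), LOC501038 (0.22), Pgpep1 (0.23), Gpam (0.26) and Mk1 (0.26). Abcg2, an efflux transporter, had 10.8, 10.1, 19.0 and 13.2 TPM, highest in the desflurane control as Cyp2c7 was. Within the family the most alike pair was Cyp2c13 and Cyp2c23 at a distance of 0.45, and the least alike pair was Cyp2c11 and Cyp2c12 at 3.02. With 4 libraries many profiles lie close by, and these distances are a description. Chosen after the values were seen, the closest gene to Cyp2c11 was Pck1 at 0.12, with 1079, 980, 414 and 951 TPM, and the closest to Cyp2c12 was Akr1b7 at 0.52.

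The deposited tables also hold rows that were assembled from the reads without a gene name, and these describe the same loci again. For 4 of the 32 pairs of member and library, the largest assembled row on the same strand equalled the annotated row within 0.001 TPM. The annotated span of Cyp2c7 held an assembled row near each end. The row at the high end had 1698, 1837, 3897 and 2243 TPM in the sevoflurane control, sevoflurane 6 h, desflurane control and desflurane 6 h libraries, close to the annotated gene in each. The row at the low end had 1812, 351, 1379 and 1270 TPM, with the sevoflurane 6 h library far below the others, a difference that the annotated Cyp2c7 did not show. For Cyp2c11 the high end had 1428, 1207, 530 and 1139 TPM and the low end 522, 484, 284 and 738 TPM, and both were lowest in the desflurane control. When the largest assembled row took the place of each annotated row, Cyp2c13 with desflurane had a ratio of 1.07 in place of 0.873, and the desflurane ratio of Cyp2c24 was 6.44. For Cyp2c7 the largest row was at the low end in the sevoflurane control and at the high end elsewhere, so this setting compares unlike rows there. Rows of other members also differed in span. For Cyp2c24 it was chr1:258136572-258138738 in the desflurane control and chr1:258074860-258139176 in the desflurane 6 h library. For Cyp2c6v1 it was chr1:147682591-147887534 and chr1:147688909-148268152 in the same 2 libraries.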

How the data were processed

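Livers of 4 male Wistar rats were sequenced, with 1 library per condition taken from the labels. The authors trimmed the reads with sickle, aligned them to rn6 with HISAT2, sorted them with SAMtools and quantified them with StringTie and the refGene annotation. The labels name a stranded total RNA Gold kit and the methods another stranded kit of the same maker. The deposited tables hold, per row, a coverage signal (average reads per base, not normalized), FPKM values, which the authors' run of StringTie scaled by library size and gene length, and TPM. The deposited TPM is a signal scaled so that the assembled rows sum to 1000000; the annotated rows come on top and sum to 779824 to 813454. No read counts were analysed here, and the depth, from the ratio of coverage to FPKM, was 4.47 to 5.40 Gb of aligned bases.

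Annotated rows above 200 bp were kept (495 to 518 shorter rows per library were removed) and TPM was summed per symbol, which left 16992 genes. A gene was called above 2 TPM in the higher library and above 2-fold, and percentages of genes called refer to genes above 2 TPM in at least 1 of both libraries. Lists were summarised by counts and by the median difference of log2(TPM + 1). Genes named are all members, and the 5 most like the family sum and the most abundant member. From the 19 lists, genes were named by highest mean TPM, or as those past 2-fold where 5 or fewer were. This rule was not followed for every list, and a few genes beyond it were chosen after their values were seen. Members and lists were chosen with earlier results of these data known, and 1 gene of the growth hormone list is not reported here and was left out of its counts. With 1 library per condition no test was run. The calling step was tested on simulated data: in 6 comparisons of 16992 genes it recovered 200 of 200 genes changed 4-fold. These changes were far past the limit by design, so the test checks the coding of the rule. It says nothing of how reliable calls near 2-fold are. Alternatives were other scalings (median-of-ratios, FPKM), a pseudocount, the filters and limits, the mean of the 2 controls, and the assembled rows. Promoter windows came from RefSeq (GRCr8), and identity from a global alignment. Python 3.11.15 was used with numpy 2.4.6, pandas 2.3.3, Biopython 1.88 and matplotlib 3.10.9.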

Additional observations from a re-analysis of the deposited data

Results flagged for a closer look

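In 4 of the 8 Cyp2c genes the log2 ratio over the own control had opposite signs for the agents, as it had in 40.1% of the 9984 genes above 2 TPM in at least 1 library and above 0 in all 4, so that the count itself is near the background. It was -0.23 with sevoflurane and 1.08 with desflurane for Cyp2c11, 0.067 and -0.84 for Cyp2c22, -0.20 and 0.21 for Cyp2c23, and 0.016 and -0.76 for Cyp2c7. Each agent has 1 rat per condition, so whether the agents differ was not tested. The ratios of Cyp2c11 and Cyp2c7 with desflurane rest on a desflurane control that differed from the sevoflurane control by 2.68-fold (lower) and 2.03-fold (higher). Over the sevoflurane control, the same desflurane 6 h library had ratios of 0.787 for Cyp2c11, 0.734 for Cyp2c22, 1.06 for Cyp2c23 and 1.20 for Cyp2c7. The sign for Cyp2c7 with sevoflurane was itself unstable, since its ratio was 1.01 with TPM and 0.976 with FPKM. Its assembled rows differed between sevoflurane control and 6 h in opposite directions, 1698 and 1837 TPM at the high end and 1812 and 351 TPM at the low end.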

How the results depend on the processing

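The ratio of the family sum moved by less than 1.5-fold in all 50 comparisons made under other settings, with 10 changes of sign, at ratios between 0.871 and 1.11. Without Cyp2c7 it was 1.07 (desflurane over own control), 1.11 (sevoflurane 6 h over desflurane control), 0.871 (desflurane over sevoflurane control) and 0.968 (desflurane 6 h over sevoflurane 6 h). Of 62 counts of called members 50 stayed within 1.5 times. With desflurane over the own control, 2 became 1 with median-of-ratios scaling (Cyp2c24), 0 with FPKM, 1 with the mean of the 2 controls, 1 with a limit of 10 TPM and 4 with a 1.5-fold limit. With sevoflurane, 0 became 1 with the mean of the 2 controls (Cyp2c12, lower), 1 with no TPM limit (Cyp2c24, higher) and 1 with a 1.5-fold limit (Cyp2c12, lower). In desflurane 6 h over the sevoflurane control and over sevoflurane 6 h, 2 became 1 with FPKM and 1 with a limit of 10 TPM. With FPKM, Cyp2c24 had 1.58 in the desflurane 6 h library, below the limit of 2, so its call was lost in each desflurane 6 h comparison. Its FPKM ratios stayed past 2-fold in each of them, with 9.17 over the own control and 5.97 over the sevoflurane control. The cause of the other changes was not tested, apart from the limits themselves. Of 346 ratios of single members 338 moved by less than 1.5-fold. With the mean of the controls, the ratio of Cyp2c11 with desflurane was 1.15 and that of Cyp2c12 was 0.269 with sevoflurane and 1.28 with desflurane, while Cyp2c7 with sevoflurane had 0.666. FPKM shifted the median of all genes in the desflurane over the sevoflurane control to -0.20 on the log2 scale, from -0.03 with TPM. Use of the assembled rows in place of the annotated ones was chosen after seeing the data. No paired analysis was possible because each group has 1 library and the labels carry no replicate numbers. Coverage rescaled for depth gave the FPKM values again and was not run apart. Leaving out a replicate was not possible with 1 per group.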

Other observations

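Genes of liver zonation beside the Cyp2c family were counted over the own controls. Of 15 periportal genes, 3 were higher past 2-fold with sevoflurane (Asl, Arg1 and Sds), and with desflurane 4 were higher (Ass1, Asl, Sds and Pck1) and 1 lower (Aldh1b1). Of 15 pericentral genes, 1 was higher with sevoflurane (Cyp7a1, the rate-limiting enzyme of bile acid synthesis) and 2 with desflurane (Slc1a2 and Cyp1a2), and 0 were lower.

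Markers of other cell types gave the following counts past 2-fold. Endothelial (5 measured), cholangiocyte (4) and stellate cell (7) markers had 0 in all 6 comparisons. Of the 4 cholangiocyte markers, 2 were above 2 TPM, and the others could not be called. Of 8 lymphocyte markers, 3 were lower with sevoflurane and 0 were past it with desflurane over the own control. Of 4 erythroid markers, 1 was lower with sevoflurane (Alas2) and 1 with desflurane (Hbb) over the own control.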
